A study of Homo sapiens with 6 samples.

Results

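ADAM9, a membrane-anchored protease, was described together with 4 other sheddase genes (ADAM10, ADAM12, ADAM15 and ADAM17), 2 matrix metalloproteinase genes (MMP2 and MMP14) and 3 genes for their inhibitors (TIMP1, TIMP2 and TIMP3). These 10 genes of the 30015 in the table were found by symbol. They had been chosen from knowledge of how they differed between the groups compared here, so their differences are given as a description, without a test. All 10 were measured, and 9 of them averaged at least 10 normalized counts over the libraries, the minimum for the 15251 genes that entered the model. MMP2 did not.

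RNA was sequenced from HMV-II cells, an established human line of vaginal mucosal melanoma, to ask which transcripts depend on EZH2. EZH2 is the catalytic subunit of Polycomb repressive complex 2, which trimethylates histone H3 on lysine 27. The Vector group comprised 3 libraries of cells that carried a control vector, given a wild-type genotype in the labels and no treatment. Its columns are headed shNC. The paper describes a scrambled hairpin, likewise delivered by lentivirus with puromycin selection, as its negative control. The shEZH2 group comprised 3 libraries of cells in which EZH2 was knocked down by a short hairpin RNA delivered with a lentivirus, as lines kept under puromycin. With a single knockdown group, the effect of losing EZH2 and any other effect of that hairpin or of that selected line cannot be told apart. The labels do not say that replicates were separate cultures, so p-values measure only the spread between these libraries.

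Proteins of the ADAM (a disintegrin and metalloproteinase) family cut the outer part of other membrane proteins close to the cell surface, a step called ectodomain shedding, and their disintegrin domains can bind integrins. Matrix metalloproteinases cut collagens and other matrix proteins, and MMP14 at the surface of the cell turns the secreted precursor of MMP2 into the active enzyme. The tissue inhibitors of metalloproteinases (TIMPs) bind the active site of these enzymes, and TIMP3 is the one that stays in the matrix and also inhibits ADAM17. In melanoma these enzymes are studied for their part in invasion and in the release of growth factors and immune ligands.

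The depth was 13400290 to 15923029 reads on genes in Vector libraries and 16129171 to 19128939 in shEZH2 libraries. EZH2 itself was at 483, 437 and 552 in Vector and at 237, 247 and 225 normalized counts in shEZH2 replicates 1, 2 and 3 (log2 fold change -1.04, standard error 0.14, adjusted p = 0.0142 in limma, and -1.12 without Vector replicate 2). All 8 melanocyte markers examined, among them SOX10 and MITF, averaged at least 10 normalized counts and summed to 75515 to 100744 in Vector and 78898 to 85355 in shEZH2 libraries, and 0 of 6 immune markers did. Of the 8, TYRP1 and MLANA were called higher at log2 fold changes of 1.68 and 0.88 and TYR lower at -0.97. Of 8 fibroblast markers 3 passed that minimum, and their list summed to 442 to 454 normalized counts in Vector and 728 to 912 in shEZH2 libraries, with FAP and LUM higher and COL1A2 lower in shEZH2 cells. The fibroblast genes COL3A1 and DCN were near 0, with means of 0.34 and 0.34 normalized counts in Vector and 0.95 and 0.95 in shEZH2 libraries. Their part in the results below was not tested. In bulk RNA, fewer cells that carry a transcript and less of it per cell cannot be told apart.

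Vector replicate 2 stood apart from the other libraries. A chi-square of paired counts, averaged over genes and near 1 for sampling noise alone, came to 2.09 for Vector replicates 1 and 3, to 103 and 101 for each of these with replicate 2, and to 5.83 to 20.7 for pairs of shEZH2 replicates. The deviation of this library followed gene length, with a median log2 deviation from replicates 1 and 3 of -0.56 in the shortest of 5 length classes and 0.41 in the longest. The deviations of the genes described here did not all follow their length class. TIMP1, the shortest of the 9 at 1541 bases, deviated by -1.64 in replicate 2. MMP14 deviated by -0.42, TIMP3 by -0.27, TIMP2 by -0.16 and ADAM9 by -0.14, both of these in a length class with a median of 0.13, whereas ADAM15 deviated by 0.41, ADAM10 by 0.51, ADAM17 by 0.75 and ADAM12 by 0.82. For this reason the fold changes of the 9 tested genes are given with all 6 libraries and, beside it, without Vector replicate 2.

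**Figure D1:**
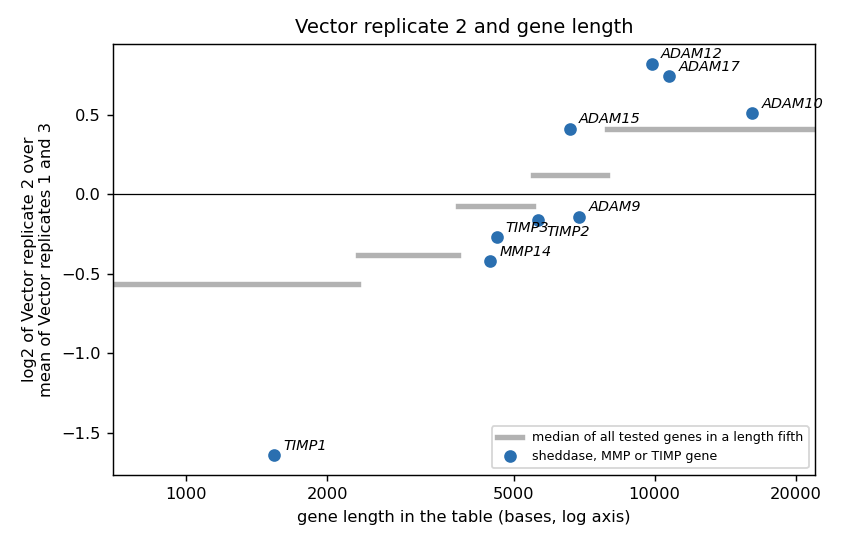
Deviation of Vector replicate 2 from the mean of Vector replicates 1 and 3 (log2, y axis) against gene length in the table (bases, log axis). Grey bars give the median of all tested genes in each of 5 length classes, from -0.56 in the shortest to 0.41 in the longest, and blue points are the 9 tested sheddase, metalloproteinase and inhibitor genes, with TIMP1 lowest at -1.64 and ADAM12 highest at 0.82.

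ADAM9 was the sheddase that differed most. The gene (ENSG00000168615) lies on the plus strand of chromosome 8 of GRCh38 from 38996869 to 39105144, and it encodes meltrin gamma, a protease of broad tissue distribution that has been linked to tumour cell adhesion and invasion. It had 1400, 1306 and 1477 normalized counts in the 3 Vector replicates, and 315, 426 and 314 in the 3 shEZH2 replicates. All 3 shEZH2 libraries were far below the lowest Vector library, and the 3 Vector libraries lay close together, replicate 2 included. The means were 1395 ± 85.7 (SD, n = 3) and 352 ± 64.1 (SD, n = 3), so that 25.2% of the Vector mean remained. This gave a log2 fold change of -2.00 (standard error 0.16), a 3.99-fold lower level, and it was -2.04 without Vector replicate 2 and -1.95 after a gene length trend was removed from every library. Leaving out each library in turn kept it between -2.14 and -1.92. Among the 15251 tested genes, 19 had a lower log2 fold change. No other gene of the table overlaps ADAM9.

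ADAM12, which encodes meltrin alpha, a protease of muscle and placenta development that many tumours express, was also lower but at a low level. The gene (ENSG00000148848) lies on the minus strand of chromosome 10 from 126012381 to 126388455. It had 37.6, 51.2 and 19.3 normalized counts in Vector and 18.1, 8.78 and 10.5 in shEZH2 replicates 1, 2 and 3. The groups did not overlap, but Vector replicate 3 and shEZH2 replicate 1 were almost level with each other. These values came from 99 reads in Vector and 41 in shEZH2 libraries, a ratio after scaling of 0.346 with an exact 95% interval of 0.234 to 0.502 that covers counting error only. On the log2 scale the fold change was -1.42 (standard error 0.44) and -1.12 without Vector replicate 2, the library with the most reads of this gene. Without shEZH2 replicate 2 it was -1.22 and no longer met the call described below.

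ADAM17, the tumour necrosis factor converting enzyme and the main sheddase of several EGF receptor ligands, lies on the minus strand of chromosome 2 from 9488486 to 9556732 (ENSG00000151694). It had 1715, 2901 and 1746 normalized counts in Vector and 1232, 1505 and 1462 in shEZH2 replicates 1, 2 and 3. The shEZH2 libraries all lay below the Vector libraries, and Vector replicate 2 was far above the other two of its group. The log2 fold change was -0.56 (standard error 0.22), a 1.47-fold lower level just short of the 1.5-fold change used for calls, and it was -0.31 without Vector replicate 2. It passed that change at -0.69 without Vector replicate 1 and -0.68 without Vector replicate 3, and at -0.63 in DESeq2 and -0.60 in edgeR on the recovered reads. IAH1, on the opposite strand, overlaps ADAM17 at a mean of 622 normalized counts, 35.4% of that of ADAM17, and with the strandedness of the counting not given the reads of the overlap cannot be assigned.

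ADAM10, the protease that cuts Notch receptors, amyloid precursor protein and N-cadherin, lies on the minus strand of chromosome 15 from 58588807 to 58749978 (ENSG00000137845). Its values were 3020, 4338 and 3071 normalized counts in Vector and 2327, 3045 and 2764 in shEZH2 replicates 1, 2 and 3. The groups overlapped, since shEZH2 replicate 2 was above Vector replicate 1, and Vector replicate 2 was again the highest library. The log2 fold change of -0.35 (standard error 0.19) shrank to -0.18 without that library and to -0.10 after removal of the length trend. ADAM10 is the longest of the 10 genes, at 16168 bases.

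ADAM15, or metargidin, whose disintegrin domain carries an integrin-binding RGD motif, lies on the plus strand of chromosome 1 from 155050566 to 155062775 (ENSG00000143537). It had 2202, 2898 and 2145 normalized counts in Vector and 2700, 2322 and 2527 in shEZH2 replicates 1, 2 and 3. The highest library of all 6 was Vector replicate 2 and the lowest was Vector replicate 3, so the shEZH2 values lay within the Vector range. Its log2 fold change was 0.07 (standard error 0.16) and 0.21 without Vector replicate 2, and it changed sign, to -0.01, without Vector replicate 3.

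**Figure D2:**
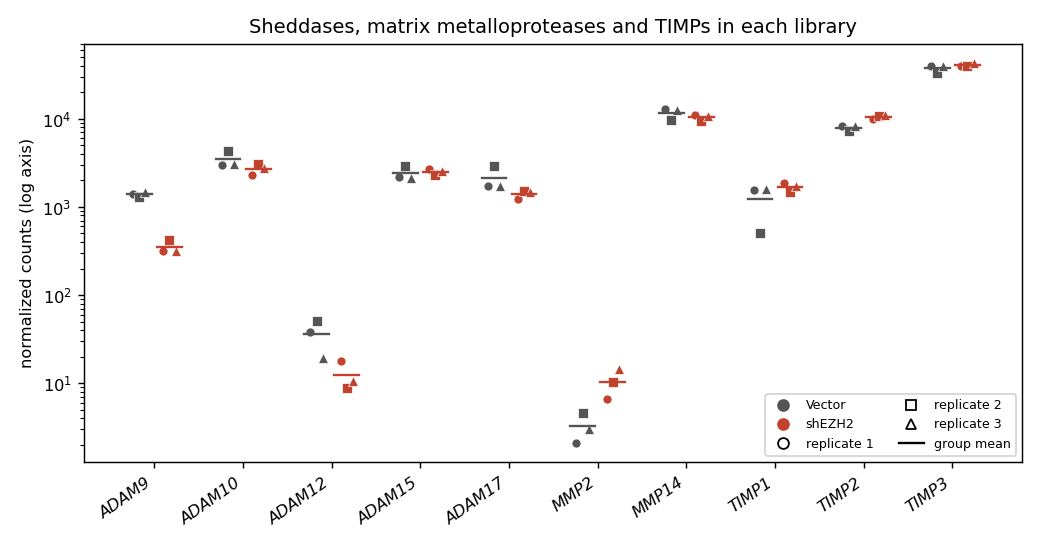
Normalized counts (log axis) of the 10 genes in each of the 6 libraries. Grey symbols are Vector and red symbols shEZH2 libraries, the shape gives the replicate number and the horizontal line the group mean. ADAM9 has a Vector mean of 1395 and a shEZH2 mean of 352, and Vector replicate 2 (grey square) lies apart from its group for TIMP1 and ADAM17.

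The sheddase transcripts were also compared with each other per kilobase of gene length, so that long and short genes share a scale. In Vector cells ADAM15 had the highest level of the 5, with a mean of 367 normalized counts per kilobase, followed by ADAM10 at 215, ADAM9 at 202, ADAM17 at 197 and ADAM12 at 3.66. The ranges of ADAM10 and ADAM9 overlapped, as did those of ADAM9 and ADAM17, so those 3 genes could not be ordered over all Vector libraries. Both overlaps came from Vector replicate 2. In Vector replicates 1 and 3, ADAM9 was 22.8% and 23.9% of the summed level of the 5 genes. There ADAM10 was 21.1% and 21.2%, and ADAM17 18.0% and 18.2%. In replicate 2, ADAM9 was 16.1%, ADAM10 22.9% and ADAM17 23.0%. In shEZH2 cells the order was ADAM15 at 382, ADAM10 at 168, ADAM17 at 130, ADAM9 at 50.9 and ADAM12 at 1.26, and no neighbouring pair of the 5 overlapped. ADAM9 was thus below both ADAM10 and ADAM17 in every shEZH2 library, as in Vector replicate 2 but unlike in Vector replicates 1 and 3. Its level exceeded that of 77.1% of the tested genes in Vector and 42.5% in shEZH2 cells.

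Expressed as a part of the summed level of the 5 genes, ADAM9 made up 22.8%, 16.1% and 23.9% in Vector replicates 1, 2 and 3, and 6.37%, 8.28% and 6.16% in the shEZH2 replicates. ADAM15 made up 36.5% to 37.7% in Vector and 47.4% to 57.3% in shEZH2 libraries. Neither gene's shares overlapped between the groups, but the genes were chosen on this contrast, so nothing is read from that separation. Because the shares of a library add up to 100, a larger share of ADAM15 goes with a smaller share of ADAM9. The ADAM15 level itself was similar. The summed level was 887 to 1172 normalized counts per kilobase in Vector and 716 to 744 in shEZH2 libraries, with the highest of the Vector sums in replicate 2. ADAM10 took a mean share of 21.7% and 22.9%, and ADAM17 of 19.7% and 17.8%, in Vector and shEZH2 libraries.

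**Figure D3:**
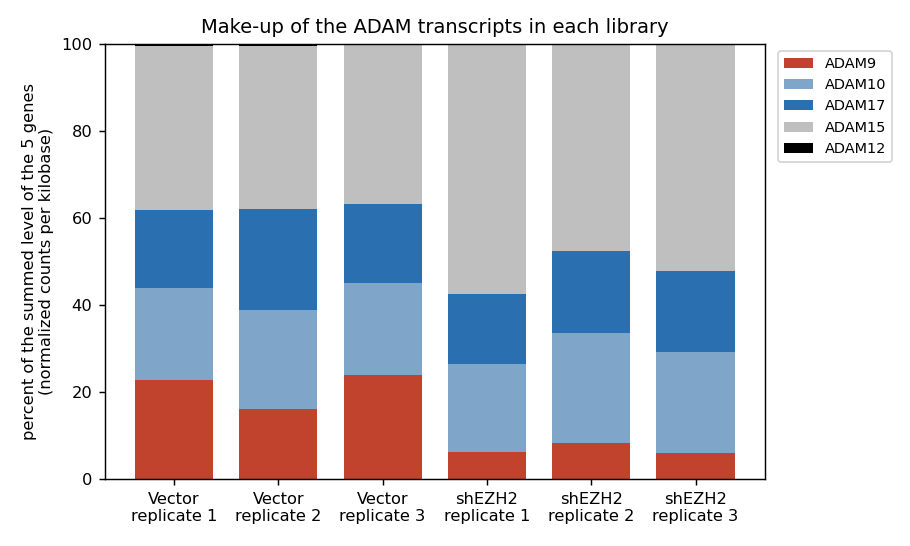
Share of each gene (percent, y axis) in the summed level of the 5 ADAM genes, in normalized counts per kilobase, for each of the 6 libraries. The red part, ADAM9, takes 16.1% to 23.9% in Vector and 6.16% to 8.28% in shEZH2 libraries, and ADAM12 at the top is barely visible.

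MMP14 and MMP2, which act in sequence at the cell surface, were at opposite ends of expression. MMP14, or MT1-MMP, lies on the plus strand of chromosome 14 from 22836557 to 22849027 (ENSG00000157227). It had 13007, 9562 and 12564 normalized counts in Vector and 10926, 9500 and 10768 in shEZH2 replicates 1, 2 and 3. Both low values, Vector replicate 2 and shEZH2 replicate 2, were nearly equal. The groups overlapped only through Vector replicate 2, since Vector replicates 1 and 3 were above every shEZH2 library. MMP14 thus had a log2 fold change of -0.16 (standard error 0.17) and -0.30 without Vector replicate 2.

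MMP2, the secreted gelatinase A, lies on the plus strand of chromosome 16 from 55389700 to 55506691 (ENSG00000087245). It had 2.09, 4.66 and 3.05 normalized counts in Vector and 6.67, 10.4 and 14.3 in shEZH2 replicates 1, 2 and 3. Every shEZH2 library was above every Vector library, but the whole difference was one between 9 and 35 reads. The ratio after scaling was 3.25 with an exact 95% interval of 1.53 to 7.68, which covers counting error only. The gene was below the minimum of the model. With no minimum it was fitted at a log2 fold change of 1.41 and called higher.

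TIMP3 had the highest level of the 10 genes, and it lies on the plus strand of chromosome 22 from 32801701 to 32863043 (ENSG00000100234). It had 39364, 32795 and 39741 normalized counts in Vector and 39300, 39840 and 42801 in shEZH2 replicates 1, 2 and 3. Apart from the lower Vector replicate 2 the libraries were close, and the groups overlapped. The log2 fold change was 0.13 (standard error 0.17) and 0.04 without that library. SYN3, in which TIMP3 is nested, had a mean of 101 normalized counts, 0.26% of that of TIMP3.

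TIMP2, the inhibitor that also links MMP14 to the precursor of MMP2 at the cell surface, lies on the minus strand of chromosome 17 from 78852977 to 78925387 (ENSG00000035862). It had 8221, 7334 and 8168 normalized counts in Vector and 9788, 10747 and 11020 in shEZH2 replicates 1, 2 and 3. All 3 shEZH2 libraries were above all 3 Vector libraries. For TIMP2 the log2 fold change was 0.41 (standard error 0.14), below the 1.5-fold change, and 0.36 without Vector replicate 2.

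TIMP1, a secreted inhibitor that also acts as a growth factor for some cells, lies on the plus strand of the X chromosome from 47582313 to 47586789 (ENSG00000102265). It had 1568, 504 and 1583 normalized counts in Vector and 1888, 1469 and 1726 in shEZH2 replicates 1, 2 and 3. Vector replicate 2 was far below every other library, and shEZH2 replicate 2 was below the other two Vector libraries. The log2 fold change of 0.64 (standard error 0.42) rested on that library and was 0.10 without it.

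The 3 inhibitors together were set beside MMP14, the only one of the 2 metalloproteinases with more than a few reads, as levels per kilobase. Their sum was 3.78, 4.09 and 3.95 times the MMP14 level in Vector replicates 1, 2 and 3, and 4.70, 5.41 and 5.13 times in the shEZH2 replicates. TIMP2 alone was 0.501, 0.608 and 0.515 times the MMP14 level in Vector and 0.71, 0.896 and 0.811 times in shEZH2 replicates. Neither ratio overlapped between the groups, although the MMP14 levels themselves did. Among single tested genes, every shEZH2 library was above every Vector library for 18.4% and below for 16.5%. No such share was computed for ratios, and the genes were chosen on this contrast, so nothing is read from that separation. TIMP3 made up a mean of 78.9% of the summed inhibitor level in Vector and 74.8% in shEZH2 libraries.

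Per kilobase, the non-ADAM genes ranked TIMP3 (8103 normalized counts), MMP14 (2623), TIMP2 (1404) and TIMP1 (791) in Vector cells, all but the last clear of their neighbours. The TIMP1 range overlapped that of ADAM15 only through Vector replicate 2, where TIMP1 was at 327. In shEZH2 cells the order of those 4 was the same, at 8831, 2329, 1867 and 1099, with no overlap between neighbours. At the bottom, MMP2 (0.662) was below ADAM12 (3.66) in Vector cells, whereas the ranges of MMP2 (2.12) and ADAM12 (1.26) overlapped in shEZH2 cells.

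A gene was called where limma gave an unadjusted p under 0.05 and a change of over 1.5-fold. Of the 9 tested genes, 2 (ADAM9 and ADAM12) were called lower and 0 higher, beside 7.07% and 7.55% of all tested genes. After Benjamini-Hochberg adjustment 1 of them, ADAM9, was lower at an adjusted p under 0.05, beside 1.84% of all tested genes. The shEZH2 libraries all lay below the Vector libraries for 3 of the 9 genes (ADAM9, ADAM12 and ADAM17), beside 16.5% of all, and above for 1 (TIMP2), beside 18.4%. With no minimum MMP2 was called higher as well, so that 3 of the 10 were called, and in DESeq2 and edgeR ADAM17 was called lower as well. Without Vector replicate 2 the calls were the same 2 genes, beside 5.64% called lower of all. Because the genes were chosen on this contrast, nothing is read from these counts. The median log2 fold change of the 9 was -0.16, and that of all tested genes was 0.04.

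**Figure D4:**
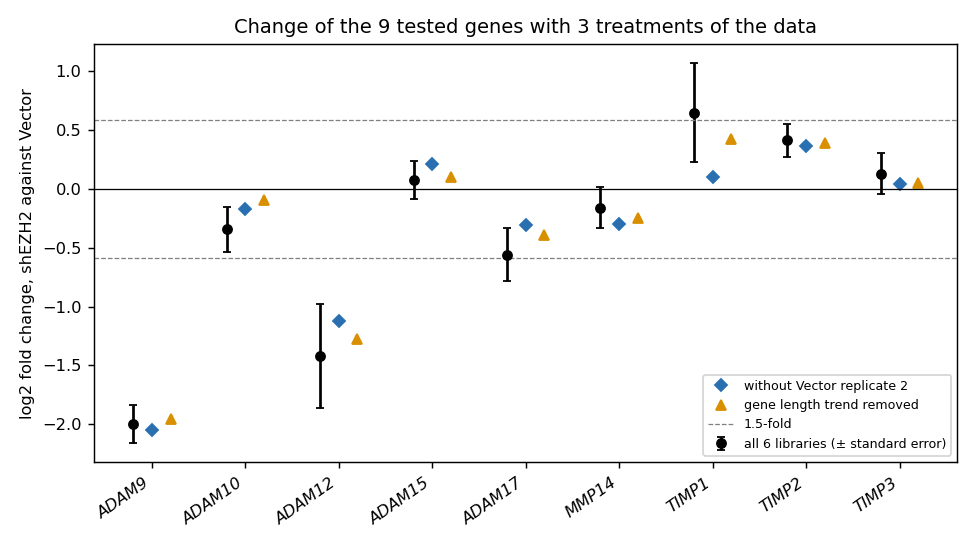
Log2 fold change of shEZH2 against Vector cells (y axis) for the 9 tested genes. Black points with bars give the value from all 6 libraries and its standard error, blue diamonds the value without Vector replicate 2, orange triangles the value after removal of the gene length trend, and dashed lines a 1.5-fold change. ADAM9 stays near -2.00 in all 3 treatments, whereas TIMP1 goes from 0.64 to 0.10 without Vector replicate 2.

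For 3 of the genes, the 250 bases upstream of the annotated start are shown as given in the RefSeq promoter table (GRCh38.p14). It matched 7 of the 10 genes and has no entry for ADAM9, MMP2 and TIMP2. The sequences below are those of ADAM12, which was lower, and of MMP14 and TIMP3, the most highly expressed metalloproteinase and inhibitor of the group, neither of which was called. They lie at chr10:126388478-126388727 on the minus strand, chr14:22836335-22836584 on the plus strand and chr22:32801455-32801704 on the plus strand, and each is written 5′ to 3′ on the strand of its gene. Capitals mark matches on either strand to the GC box GGGCGG.
ADAM12: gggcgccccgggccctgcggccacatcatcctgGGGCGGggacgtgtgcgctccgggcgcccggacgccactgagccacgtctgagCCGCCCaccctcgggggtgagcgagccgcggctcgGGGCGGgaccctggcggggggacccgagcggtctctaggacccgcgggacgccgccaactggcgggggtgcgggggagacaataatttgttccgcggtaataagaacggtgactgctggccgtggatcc
MMP14: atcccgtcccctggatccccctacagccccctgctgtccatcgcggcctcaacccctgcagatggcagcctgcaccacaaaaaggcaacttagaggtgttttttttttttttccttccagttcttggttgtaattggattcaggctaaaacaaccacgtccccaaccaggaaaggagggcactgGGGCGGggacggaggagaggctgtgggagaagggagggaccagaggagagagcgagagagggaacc
TIMP3: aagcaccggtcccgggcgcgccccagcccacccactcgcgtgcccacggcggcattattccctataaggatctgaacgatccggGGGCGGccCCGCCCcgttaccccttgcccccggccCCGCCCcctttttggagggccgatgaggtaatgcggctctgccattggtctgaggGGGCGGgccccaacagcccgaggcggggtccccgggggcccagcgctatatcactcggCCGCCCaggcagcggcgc
ADAM12 holds 3 GC boxes and 31 CpG dinucleotides, MMP14 1 and 7, and TIMP3 5 and 26. Of 27303 promoter windows of this length in the table, 42.3% hold a GC box, and the median number of CpG dinucleotides is 11. Matches to the AP-1 motif TGANTCA (in 6.6% of all windows) and the TEAD motif GGAATG (in 11.9%) were also searched for on both strands. None of the 3 windows shown holds either of them. Of the other 4 with an entry (ADAM10, ADAM15, ADAM17 and TIMP1), only that of ADAM17 holds a match, to the TEAD motif. By the gene bounds given above, all 250 bases of the ADAM10, ADAM15 and ADAM17 windows lie inside those genes. So do 123 bases of the TIMP1 window, 28 of that of MMP14 and 4 of that of TIMP3. A match in these letters is a description of the sequence and not evidence that a factor binds.

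Other genes of the metalloprotease and shedding pathway were taken as 8 lists of 139 genes, of which 84 were tested. Of these, 11 (13.1%) were called higher and 6 (7.14%) lower in shEZH2 cells, beside the 7.55% and 7.07% of all tested genes. The lists were chosen with earlier results of these data known, so nothing is read from these shares. None of the 5 tested ADAM genes outside the 10 was called (median log2 fold change -0.15, and 0.07 without Vector replicate 2, when 2 were called higher). Of 13 ADAMTS and ADAMTSL genes, secreted relatives of the ADAMs, ADAMTS7 rose by 0.91 on the log2 scale (adjusted p = 0.0366 in limma) and ADAMTS9 was called lower at -0.74 (adjusted p = 0.159 in limma), a value that was -0.45 without Vector replicate 2. Of 7 other MMP genes, MMP16, a membrane-bound relative of MMP14, was called lower at -0.82 (adjusted p = 0.138 in limma, and -0.59 without Vector replicate 2). Of 5 other inhibitors of metalloproteinases and of 8 genes of gamma-secretase and the BACE proteases, 0 were called. Their median log2 fold changes were -0.05 and 0.34 with all libraries, and 0.03 and 0.01 without Vector replicate 2, when 1 of the inhibitors was called higher.

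Among 15 tested genes for the maturation and trafficking of sheddases, which govern where ADAM10 and ADAM17 become active, 2 were called higher and 1 lower. TSPAN5 and TSPAN10 encode tetraspanins that escort ADAM10 out of the endoplasmic reticulum. TSPAN5 had 283, 295 and 312 normalized counts in Vector and 569, 628 and 634 in shEZH2 replicates 1, 2 and 3, and rose by 1.04 on the log2 scale (adjusted p = 0.0109 in limma). TSPAN10 was called higher at 0.75 (adjusted p = 0.0974 in limma), a value that was 0.55 without Vector replicate 2. FRMD8, which holds the iRhom and ADAM17 complex at the cell surface, had 2428, 2019 and 2291 normalized counts in Vector and 1583, 1319 and 1450 in shEZH2 replicates, and was called lower at -0.63 (adjusted p = 0.0532 in limma).

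Of 28 tested surface proteins other than EGF receptor ligands, 7 were called higher and 2 lower, beside 7.55% and 7.07% of all tested genes. The median log2 fold change of the 28 was -0.01. Of the 7, 3 also passed at an adjusted p under 0.05, namely SDC1, NRG1 and MICA. MICA, named after its values were seen, rose by 1.15 (adjusted p = 0.0246 in limma, and 0.94 without Vector replicate 2). SDC1, the heparan sulfate proteoglycan syndecan-1, had 187, 210 and 165 normalized counts in Vector and 539, 430 and 500 in shEZH2 replicates 1, 2 and 3, a rise of 1.38 on the log2 scale (adjusted p = 0.00917 in limma). NRG1, the ERBB3 and ERBB4 ligand neuregulin 1, rose by 1.21 (adjusted p = 0.0178 in limma), and CXCL16, a membrane-bound chemokine that ADAM10 sheds, was called higher at 1.15 (adjusted p = 0.0836 in limma, and 0.88 without Vector replicate 2). CX3CL1, the other membrane-bound chemokine, was called lower at -0.62 (adjusted p = 0.0545 in limma), as was the receptor phosphatase PTPRK at -0.59 (adjusted p = 0.169 in limma, and -0.38 without Vector replicate 2). Of 3 tested EGF receptor ligands HBEGF was called higher at 0.69 (adjusted p = 0.106 in limma, and 0.48 without Vector replicate 2) and 1 was called lower, EGF itself, named after its values were seen, at -0.76 (adjusted p = 0.126 in limma). Shedding itself, a matter of protein, was not measured.

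The genes whose values ran most like those of ADAM9 were sought among 11883 genes that averaged 50 normalized counts or more, by the root mean square distance of gene-centred log2 values over the 6 libraries. The nearest was LINC01239, a long noncoding RNA, at a distance of 0.0787, with 377, 348 and 370 normalized counts in Vector and 82.8, 99.8 and 86.9 in shEZH2 replicates 1, 2 and 3. CBX3P7, a pseudogene of CBX3 whose reads could be shared with its parent gene, came next at 0.109, and AC015813.6 at 0.191. Their log2 fold changes were -2.01, -1.91 and -1.82, beside the -2.00 of ADAM9. The distance takes in the difference between the groups, so fold changes near that of ADAM9 follow from the choice of these genes.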

How the data were processed

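The deposited table holds signal values, for which the authors counted reads on genes (featureCounts v1.5.0-p3) and divided them by a size factor per library. It also holds the deposited log2 fold changes, p-values and group means of the authors' own comparison with DESeq2 1.20.0, which were not used. Of the columns that hold 1 library each, 6 were used and 0 left out. Dividing each column by its smallest value gave whole reads for 100% of the values (tolerance 0.01). The submitters' notes name hg19, but of 20633 genes matched by symbol 47.7% had a start or end of the GRCh38 annotation and 0.708% one of GRCh37, so the coordinates were read as GRCh38. The aligner and the strandedness are not given in the sources used here.

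The main model was limma 3.58.1 (lmFit, then eBayes with trend=TRUE) on log2(normalized count + 1), which understates the change of low genes, over genes with a mean of at least 10. Calls needed an unadjusted p under 0.05 and a change of over 1.5-fold, and adjustment was by Benjamini-Hochberg over the genes tested. Count models on the recovered reads were alternatives: edgeR 4.0.16 (quasi-likelihood, TMM and RLE factors) called 2277 and 2273 genes and DESeq2 1.42.0 called 2366, beside 2229 in limma. Other alternatives were pseudocounts of 0.1 and 5, other minimums and thresholds, TMM scaling, removal of a gene length trend by loess, a replicate block, and each library left out. The deviations of same-numbered libraries correlated at 0.28, 0.22 and -0.11, so the numbers were not taken as pairs. The limma fit was also run on simulated counts, drawn with the same dispersion for all libraries. They held no outlying library and no gene length trend, so that run does not bear on Vector replicate 2.

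The genes described and the lists were chosen with earlier results of these data known. Named were all 10 genes, EZH2, up to 3 called genes per direction and list with a mean of at least 50, and the 3 genes nearest to ADAM9. Genes of the lists without a row were not analysed here. R 4.3.3, Python 3.11.15, pandas 2.3.3 and matplotlib 3.10.9 were used.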

Additional observations from a re-analysis of the deposited data

How the results depend on the processing

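The log2 fold change of EZH2 kept its direction and call under every alternative run, and so did ADAM9, which was called in each of 17 fits. ADAM9 also had an adjusted p under 0.05 in 16 of the 17, the exception being the fit without shEZH2 replicate 3. Because ADAM9 was chosen on this contrast and the fits share the same libraries, these counts describe the processing and are no test of ADAM9. No called result reversed, and ADAM15, which was not called, was at -0.01 without Vector replicate 3. Over the alternatives the adjusted p of genes under 0.05 in limma reached 0.128 for EZH2, 0.173 for ADAMTS7, 0.11 for TSPAN5, 0.0977 for SDC1, 0.14 for NRG1 and 0.15 for MICA. Over all genes the count of calls was 2229, and 798 with a fold change threshold of 1 on the log2 scale, 624 with an adjusted p and 1622 to 2843 with each library left out. Of the genes described, 2 were called, 1 with a mean of at least 50 (ADAM12 then falls below the minimum), 1 with an adjusted p, 3 with no minimum (MMP2 then called higher), 3 in DESeq2 and in edgeR (ADAM17 then called lower), and 1 to 3 with each library left out. The higher threshold and the adjusted p were applied separately, and the calls were as follows, the threshold first: ADAMTS genes 0 and 1, other MMP genes 0 and 0, EGF receptor ligands 0 and 0, maturation genes 1 and 1, and other shed surface proteins 5 and 3. With no minimum, the calls were 1 for other ADAM genes, 4 for ADAMTS genes and 5 for maturation genes. With the length trend removed they were 1 for other ADAM genes, 1 for ADAMTS genes, 3 for other MMP genes and 1 for EGF receptor ligands, and with a mean of at least 50 they were 1 for EGF receptor ligands. Other MMP genes had 2 calls in DESeq2 and in edgeR with TMM or RLE factors, and other inhibitors had 1 in DESeq2 and 1 with TMM scaling. With each library left out, the calls ranged from 0 to 2 for other ADAM genes, 1 to 4 for ADAMTS genes, 1 to 3 for other MMP genes, 0 to 1 for other inhibitors, 2 to 5 for maturation genes, 1 to 2 for EGF receptor ligands and 6 to 10 for other shed surface proteins. The causes of these moves were not tested, other than that fewer or more genes pass a changed minimum or threshold.

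With the replicate number as a block the calls were 2434 over all genes, 2 of the genes described, 3 ADAMTS genes, 4 maturation genes and 10 other shed surface proteins, and with the block and the length trend removed 3 other MMP genes and 1 EGF receptor ligand were called. The replicates share only a number, and these counts are given for completeness.

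Depth limits MMP2 and ADAM12, whose values rest on few reads. Vector replicate 2 limits TIMP1, ADAM10, ADAM12, ADAM15, ADAM17 and MMP14.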
